A study of Homo sapiens with 18 samples.

Results

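The genes described here are 10 genes of human cells that carry cytarabine into the cell, activate it or inactivate it. They are SLC29A1, SLC29A2, DCK, CMPK1, CDA, DCTD, NT5C2, NT5C3A, NT5E and SAMHD1. They were chosen by name as the rows with these gene symbols in the authors' table of 25296 genes. All 10 passed the filter on low counts that left 18226 genes for testing.

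Total RNA was sequenced from U2OS, a human osteosarcoma line, in 3 derivatives that carried the empty retroviral vector MigR1 (EV), an overexpressed wild-type DNMT3A (WT) or an overexpressed mutant DNMT3A (MUT). DNMT3A adds methyl groups to DNA. It is written simply as mutant because the labels and the series text differ on the residue (R882H in the former, R882C in the latter). Each derivative was sampled without cytarabine and after 24 h in 10 µM cytarabine, which gave 6 groups of 3 libraries plated as biological triplicates. The labels call the cells without drug untreated and the series text calls them a vehicle control. All groups share the U2OS background, and each derivative is 1 overexpression line, so a difference between lines cannot be told apart from a difference between the cells that founded them. The labels do not say whether a line was 1 clone or a pool.

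Cytarabine resembles deoxycytidine, and once polymerases insert it the replication fork stalls. As background, it enters cells through equilibrative nucleoside transporters, is phosphorylated first by deoxycytidine kinase and then by nucleotide kinases, and acts as its triphosphate. Cytidine deaminase and deoxycytidylate deaminase remove the drug or its monophosphate, 5'-nucleotidases take the phosphate off again, and SAMHD1 breaks down the active triphosphate. The same enzymes serve the salvage and breakdown of natural deoxycytidine.

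DNMT3A itself stood at 26.2 to 27.5 CPM (counts per M counts of the scaled library) in untreated EV, 129.4 to 139.1 CPM in untreated WT and 253.6 to 615.0 CPM in untreated MUT. With drug it stood at 45.5 to 49.6 CPM in EV, 166.4 to 182.1 CPM in WT and 514.6 to 531.9 CPM in MUT. The log2 fold change with drug was 0.818 in EV (edgeR adjusted p = 0.00198), 0.405 in WT (0.0724) and 0.200 in MUT (0.353). These levels follow the labels, although the counts do not separate the transgene from the resident gene. Library totals ran from 15.4 to 21.9 M estimated counts, and mitochondrial genes took 2.70% to 5.18% of them. The 3 untreated MUT libraries differed most among themselves. Their counts differed pairwise by a chi-square of 21.2 to 46.8 per degree of freedom over genes, against at most 15.2 within any other group, in treated EV. Their correlations over genes (log2 CPM) were 0.967 to 0.982, and those in treated EV 0.977 to 0.989. In each library the 9 members other than NT5E were set against the mean of the other libraries of its group. The median absolute deviation was 0.170 to 0.237 on the log2 scale in untreated MUT, against 0.029 to 0.114 in the other 15 libraries. In untreated MUT replicate 2, 8 of these 9 members lay below their group mean and the mitochondrial share was 4.47%. In untreated MUT replicate 3, 8 of 9 lay above it and the DNMT3A level was the lowest of the group. Treated EV replicate 2 had the smallest total and the 5.18% mitochondrial share. The 6 mesenchymal and osteoblast markers (VIM, COL1A1, COL1A2, SPARC, RUNX2 and ALPL) were present in every group and summed to 3115 to 3912 CPM in untreated and 2259 to 2712 CPM in treated libraries. COL1A2 was as low as 0.292 CPM in untreated EV. VIM fell with drug in all lines (log2 fold changes -0.905, -0.862 and -0.975 in EV, WT and MUT), and COL1A2 rose (2.195, 2.058 and 1.878). Of 7 markers listed for other cell types 1, CD3E, was not analysed here. Among the others the highest level was 5.18 CPM, of CDH1.

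The promoter stretches of 3 members are shown because CDA, SAMHD1 and SLC29A1 changed in all 3 lines and stand for the deaminases, the triphosphate hydrolase and the transporters. The letters come from the RefSeq promoter table of GRCh38.p14. They read 5' to 3' on the gene's own strand and stop ahead of the gene's start in both the authors' table and GENCODE release 44. CpG dinucleotides, the bases that DNMT3A methylates, are in capitals.
CDA, chr1:20588847-20588947, plus strand: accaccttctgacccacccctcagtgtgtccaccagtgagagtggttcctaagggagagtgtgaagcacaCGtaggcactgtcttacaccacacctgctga
SAMHD1, chr20:36951903-36951958, minus strand: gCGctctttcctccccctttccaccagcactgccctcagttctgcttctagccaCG
SLC29A1, chr6:44219365-44219504, plus strand: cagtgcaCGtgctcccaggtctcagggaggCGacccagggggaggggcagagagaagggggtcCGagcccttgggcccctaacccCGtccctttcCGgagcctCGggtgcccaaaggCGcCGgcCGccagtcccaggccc
The CDA stretch held 1 CpG, the SAMHD1 stretch 2 and the SLC29A1 stretch 9. Over the whole 250 bases before the RefSeq start of each stretch, CDA held 5 CpG, SAMHD1 14 and SLC29A1 19. For SLC29A1 a further listed start, inside the gene, had a window (chr6:44223345-44223594) with 27 CpG. Of 35116 promoters in the table, 38.1% held no more CpG than CDA, and the median was 11. RefSeq entries matched 9 of the 10 members, with 14 starts in all. CDA had the fewest CpG of the members with 1 listed start: CMPK1 held 16, NT5E 28 and DCK 31. Members with several listed starts included windows with fewer than CDA: NT5C2 held 0, 3 and 34 CpG, and NT5C3A 4 and 25. On either strand, the CCAAT box (letters CCAAT) occurred 2 times in the SAMHD1 window, and 32% of all promoters held it at least once. The GC box (letters GGGCGG) occurred 2 times in the first SLC29A1 window and 3 times in the further one. It occurred 0 times in the CDA window, and 42.6% of all promoters held it. DNA methylation was not measured in these libraries.

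After 24 h of cytarabine, 6 of the 10 genes passed an edgeR adjusted p of 0.05 in the same direction in all 3 lines. Of all tested genes, 35.3% did. The cytidine deaminase CDA and the triphosphate hydrolase SAMHD1 rose, between 1.76-fold and 2.96-fold. The main transporter SLC29A1, the monophosphate kinase CMPK1, the deaminase DCTD and the nucleotidase NT5C3A fell, to between 0.623 and 0.812 of the untreated level. DCK, which carries out the first activating step, rose past the threshold in MUT, but the difference in response between lines did not pass it. Between lines, CDA was far lower in WT than in EV or MUT, with and without drug.

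Counted by line, 7 of 10 members passed an adjusted p of 0.05 in EV (2 higher, 5 lower), where 49.1% of all tested genes did (26.1% higher, 22.9% lower). In WT 6 passed (2 higher, 4 lower), where 49% of all genes did (26.3% higher, 22.7% lower). In MUT 7 passed (3 higher, 4 lower), where 56.3% of all genes did (30.4% higher, 25.9% lower). Beside these shares, the counts give no result that sets the members apart from other genes. The median log2 fold change of the 10 members was -0.24 in EV, -0.16 in WT and 0.00 in MUT, beside 0.05, 0.03 and 0.05 over all genes tested. One direction past the threshold in all 3 lines was found for 6 of 10 members and for 35.3% of all genes (18.9% higher and 16.4% lower). These values are relative levels in bulk RNA, so fewer cells that express a gene and less of its RNA per cell cannot be told apart.

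**Figure D1:**
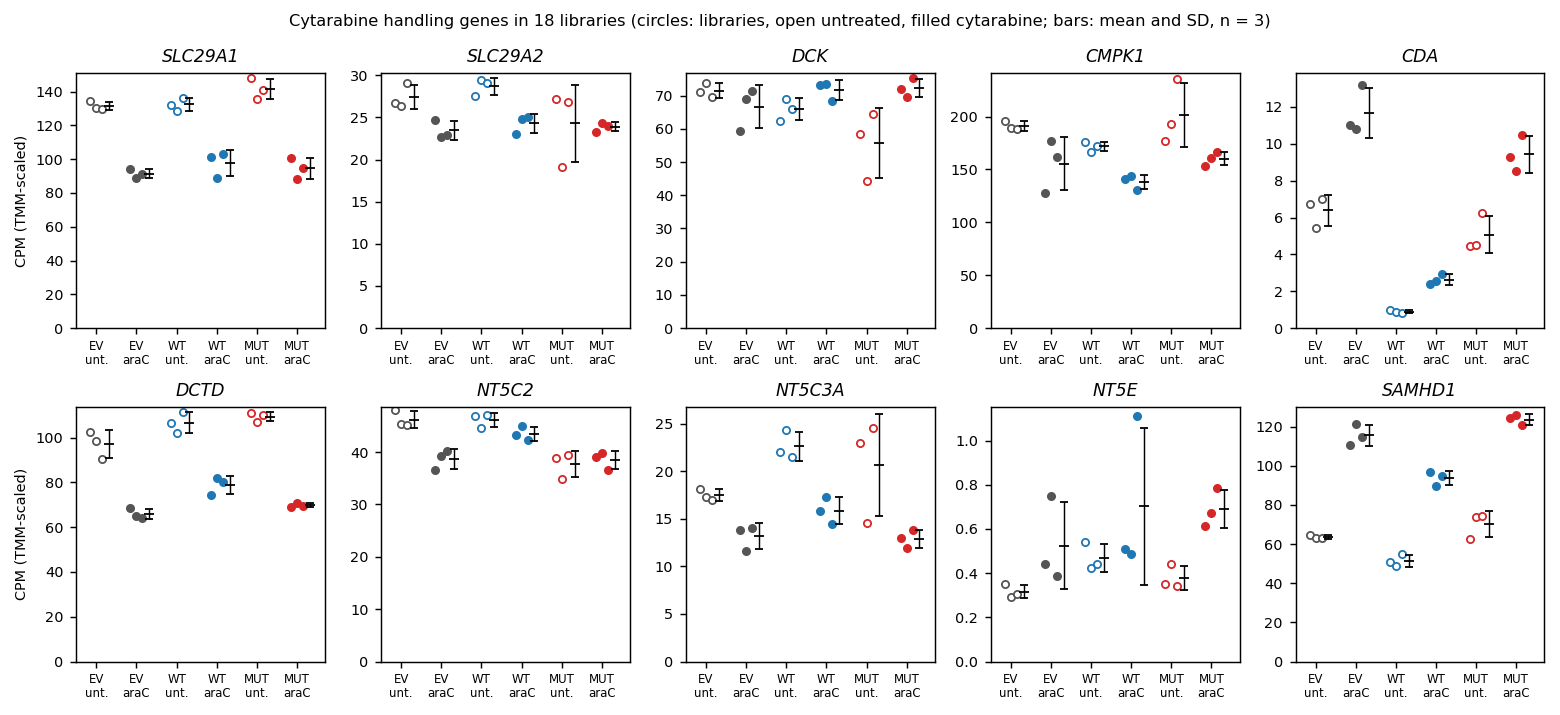
Level of the 10 genes in each of the 18 libraries, in CPM on a linear axis from 0, by line and treatment. Circles are libraries (open untreated, filled cytarabine) and bars give the mean and SD of 3. CDA and SAMHD1 lie higher and SLC29A1 and DCTD lower with cytarabine in every line, and CDA lies at 0.825 to 0.981 CPM in untreated WT.

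Among the transporters, SLC29A1 encodes ENT1, the equilibrative transporter that carries most cytarabine into many cells (chr6:44219505-44234152, plus strand). Untreated EV libraries read 134.4, 130.5 and 129.7 CPM, and treated ones 94.3, 88.9 and 91.1 CPM. Untreated WT libraries read 132.3, 128.8 and 136.4 CPM, and treated ones 101.0, 88.8 and 102.8 CPM. Untreated MUT libraries read 147.9, 135.7 and 140.8 CPM, and treated ones 100.9, 88.3 and 94.6 CPM. No treated library reached any untreated library of any line. The log2 fold change was -0.52 ± 0.07 (SE) in EV (edgeR adjusted p = 3.22e-06), -0.44 ± 0.07 in WT (2.23e-05) and -0.58 ± 0.07 in MUT (6.1e-07). The falls did not differ past the threshold between lines, and the difference MUT minus EV was -0.06 with a 95% interval of -0.26 to 0.14.

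SLC29A2 encodes ENT2, a related transporter with a broader range of substrates (chr11:66362521-66372215, minus strand). It stood at 26.4 to 29.0 CPM in untreated EV and 22.7 to 24.7 CPM after drug, and at 27.5 to 29.5 CPM in untreated WT and 23.0 to 25.1 CPM after drug. Treated and untreated libraries did not overlap in these lines, yet neither fall was called. The log2 fold change was -0.22 ± 0.10 in EV (edgeR adjusted p = 0.0798) and -0.24 ± 0.10 in WT (0.0583). With the authors' factors both passed the threshold, at -0.296 in EV (edgeR adjusted p = 0.0269) and -0.300 in WT (0.0241). Both also passed with only the groups compared, at -0.211 in EV (edgeR adjusted p = 0.0496) and -0.234 in WT (0.00631). Leaving out untreated MUT replicate 2, a library of another line, gave -0.221 in EV (edgeR adjusted p = 0.0149) and -0.241 in WT (0.00794). Of 25 alternatives, 3 called the EV fall and 5 the WT fall. In MUT the untreated libraries read 27.1, 19.1 and 26.8 CPM and the treated ones 23.3, 24.4 and 24.0 CPM, so the groups overlapped through untreated replicate 2 (log2 fold change -0.03, edgeR adjusted p = 0.816). Without that library the MUT value was -0.21 (edgeR adjusted p = 0.0285). SLC29A1 gave 4.82 ± 0.30 (SD, n = 3) counts for each SLC29A2 count in untreated EV and 3.90 ± 0.08 with drug, a ratio within each library that needs no scaling. This ratio was 4.62 ± 0.23 and 4.02 ± 0.41 in WT, and 5.94 ± 1.02 and 3.97 ± 0.35 in MUT. Untreated and treated ratios overlapped in WT and did not in EV or MUT.

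Of the activating kinases, DCK adds the first phosphate to cytarabine (chr4:70992538-71030915, plus strand). In EV, DCK read 71.0, 74.0 and 69.5 CPM untreated and 59.4, 69.1 and 71.5 CPM with drug. In WT, DCK read 62.5, 69.1 and 66.0 CPM untreated and 73.2, 73.5 and 68.4 CPM with drug. In both lines the treated and untreated libraries overlapped. In MUT, DCK read 58.4, 44.2 and 64.6 CPM untreated and 72.1, 69.6 and 75.2 CPM with drug, without overlap. For DCK the log2 fold change was -0.10 ± 0.10 in EV (edgeR adjusted p = 0.434), 0.12 ± 0.10 in WT (0.324) and 0.37 ± 0.10 in MUT (0.00373). Without untreated MUT replicate 2, the lowest library, the MUT rise was 0.195 (edgeR adjusted p = 0.043). The drug effect in MUT exceeded that in EV by 0.48 ± 0.14 on the log2 scale, with an unadjusted p of 0.00337 and an edgeR adjusted p of 0.133. In the authors' table DCK overlaps MOB1B on the same strand, a gene with 105% of DCK's counts summed over the libraries. How shared reads were assigned may bear on these values and is not given in the sources used here. DCK counts lay within 0.05 of a whole number in 100% of libraries, against 11.1% for NT5C2, 16.7% for SLC29A2 and 33.3% for SAMHD1. On the opposite strand SLC29A2 overlaps AP001107.9 (3% of its counts) and SAMHD1 overlaps TLDC2 (0.104%).

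CMPK1 encodes the UMP/CMP kinase, which adds the second phosphate (chr1:47333797-47378840, plus strand). In EV, CMPK1 read 196.0, 189.6 and 187.8 CPM untreated and 127.7, 176.5 and 161.6 CPM with drug. In WT, CMPK1 read 175.8, 166.9 and 172.6 CPM untreated and 140.8, 143.5 and 130.4 CPM with drug. In MUT, CMPK1 read 176.6, 192.6 and 235.6 CPM untreated and 153.4, 161.3 and 166.3 CPM with drug. Treated libraries lay below untreated ones in each line, with a wide spread in treated EV and untreated MUT. For CMPK1 the log2 fold change was -0.30 ± 0.10 in EV (edgeR adjusted p = 0.0198), -0.31 ± 0.10 in WT (0.0157) and -0.33 ± 0.10 in MUT (0.00977). The EV call rested on single libraries: without treated EV replicate 1 the value was -0.18 (edgeR adjusted p = 0.133), and without untreated EV replicate 1 it was -0.28 (0.0634). The WT call was lost without untreated replicate 1 (-0.296, edgeR adjusted p = 0.0522) or treated replicate 3 (-0.271, 0.0724). With only the groups compared, the edgeR adjusted p in WT was 1.32e-06. Of 25 alternatives, 23 kept the call in EV, 23 in WT and 25 in MUT.

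Of the deaminases, CDA turns cytidine, deoxycytidine and cytarabine into the matching uracil nucleosides (chr1:20588948-20618909, plus strand). In EV, CDA read 6.72, 5.43 and 7.01 CPM untreated and 11.0, 10.8 and 13.2 CPM with drug. In WT, CDA read 0.981, 0.847 and 0.825 CPM untreated and 2.41, 2.54 and 2.95 CPM with drug. In MUT, CDA read 4.46, 4.53 and 6.22 CPM untreated and 9.27, 8.52 and 10.5 CPM with drug. Every treated library lay above every untreated library of its line, and every treated WT library lay below every untreated EV and MUT library. For CDA the log2 fold change was 0.87 ± 0.15 in EV (edgeR adjusted p = 9.76e-05), 1.56 ± 0.21 in WT (4.91e-06) and 0.90 ± 0.16 in MUT (6.89e-05). The larger value in WT starts from 15 to 20 counts per library. It exceeded the EV effect by 0.69 (95% interval 0.15 to 1.24, unadjusted p = 0.0157, edgeR adjusted p = 0.38), so a difference between lines was not called.

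Of the 10 genes, CDA had the largest called differences in level between lines. Untreated WT was lower than EV, with a log2 fold change of -2.84 ± 0.20 (edgeR adjusted p = 8.08e-09), which is 0.140 of the EV level. Untreated MUT exceeded WT by 2.51 ± 0.20 (edgeR adjusted p = 4.86e-08), a 5.69-fold difference. With drug, WT stood at -2.15 ± 0.16 against EV (edgeR adjusted p = 3.42e-08) and MUT at 1.84 ± 0.16 against WT (2.39e-07). MUT against EV was -0.33 untreated (edgeR adjusted p = 0.156) and -0.31 treated (0.182), neither called. CDH1 and EPCAM, the epithelial markers, summed to 4.92 to 5.90 CPM in untreated EV, 2.22 to 2.86 in untreated WT and 3.02 to 4.36 in untreated MUT, and to 8.34 to 9.11, 3.40 to 5.17 and 5.58 to 6.41 CPM with drug. CDH1 rose with drug (log2 fold changes 1.15 in EV, 1.55 in WT and 1.67 in MUT) and EPCAM did not pass the threshold. The mesenchymal marker COL1A1 was lower in WT too, at 63.4 ± 4.4 CPM (SD, n = 3) untreated against 176.7 ± 8.5 in EV and 165.5 ± 23.9 in MUT, and at 67.8 ± 5.1 with drug against 240.6 ± 17.7 and 271.5 ± 30.4. COL1A2 was higher in WT, at 1.91 ± 0.47 CPM untreated against 0.458 ± 0.162 in EV and 0.546 ± 0.344 in MUT. The part of these levels in the CDA result was not tested.

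**Figure D2:**
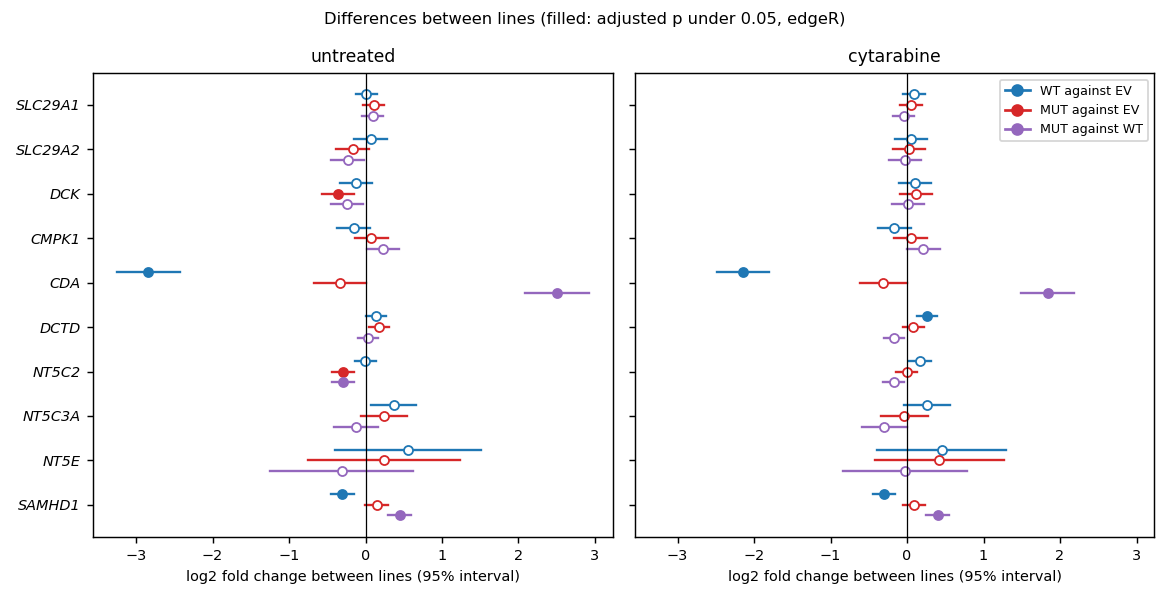
Difference between lines for each gene as a log2 fold change (x axis) with its 95% interval, untreated at left and with cytarabine at right, filled where the edgeR adjusted p was under 0.05. CDA lies at -2.84 (untreated) and -2.15 (treated) for WT against EV, farther from 0 than any of the other 9 genes.

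DCTD deaminates deoxycytidylate, and cytarabine monophosphate is also a substrate (chr4:182890060-182917937, minus strand). In EV, DCTD read 102.5, 98.4 and 90.5 CPM untreated and 68.6, 65.0 and 64.2 CPM with drug. In WT, DCTD read 106.6, 102.2 and 111.4 CPM untreated and 74.2, 81.9 and 80.2 CPM with drug. In MUT, DCTD read 110.9, 107.0 and 110.2 CPM untreated and 69.1, 70.9 and 69.5 CPM with drug. No treated library reached any untreated one, so the deaminases moved in opposite directions, CDA up and DCTD down. For DCTD the log2 fold change was -0.56 ± 0.06 in EV (edgeR adjusted p = 6.52e-07), -0.44 ± 0.06 in WT (1.05e-05) and -0.65 ± 0.06 in MUT (6.28e-08). The fall in MUT exceeded that in WT by 0.21 (log2 difference -0.21, 95% interval -0.39 to -0.02), with an unadjusted p of 0.0292 and an edgeR adjusted p of 0.262. With drug, DCTD was higher in WT than in EV, by 0.26 ± 0.06 (edgeR adjusted p = 0.00857), and this call was lost without treated WT replicate 2 (0.23, edgeR adjusted p = 0.0521).

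The 5'-nucleotidases take the phosphate off nucleoside monophosphates. NT5C2 encodes a cytosolic form that prefers purine substrates (chr10:103088017-103193307, minus strand). In EV, NT5C2 read 48.0, 45.4 and 45.2 CPM untreated and 36.5, 39.2 and 40.2 CPM with drug. WT libraries read 46.8, 44.7 and 47.1 CPM untreated and 43.3, 44.9 and 42.3 CPM treated. MUT libraries read 38.9, 34.8 and 39.4 CPM untreated and 39.1, 39.8 and 36.6 CPM treated. Treated libraries lay below untreated ones in EV and overlapped them in WT and MUT. For NT5C2 the log2 fold change was -0.26 ± 0.07 in EV (edgeR adjusted p = 0.00343), -0.09 ± 0.07 in WT (0.292) and 0.03 ± 0.07 in MUT (0.718), and the sign in MUT turned under other scalings. The drug effect in MUT minus that in EV was 0.29 (unadjusted p = 0.00664, edgeR adjusted p = 0.163). In the authors' table NT5C2 overlaps CNNM2 on the opposite strand, which had 64.8% of its counts. The sources used here do not give whether counting used strand, and without strand these genes cannot be told apart where they overlap.

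NT5C3A encodes a cytosolic pyrimidine 5'-nucleotidase (chr7:33014113-33062798, minus strand). In EV, NT5C3A read 18.2, 17.4 and 17.0 CPM untreated and 13.8, 11.7 and 14.1 CPM with drug. In WT, NT5C3A read 22.0, 24.4 and 21.5 CPM untreated and 15.9, 17.3 and 14.5 CPM with drug. In MUT, NT5C3A read 23.0, 14.5 and 24.6 CPM untreated and 13.0, 11.9 and 13.8 CPM with drug. Treated libraries lay below untreated ones in all 3 lines, in MUT by a narrow margin because untreated replicate 2 was low. For NT5C3A the log2 fold change was -0.40 ± 0.15 in EV (edgeR adjusted p = 0.0261), -0.51 ± 0.14 in WT (0.00494) and -0.68 ± 0.14 in MUT (0.00044). The EV call was lost without untreated replicate 1 (-0.379, edgeR adjusted p = 0.0763), untreated replicate 2 (-0.413, 0.054) or treated replicate 2 (-0.329, 0.102).

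NT5E encodes CD73, which sits on the outer face of the membrane and turns AMP into adenosine (chr6:85449584-85495792, plus strand). Every library held only 5 to 23 counts, from 0.292 CPM in an untreated EV library to 1.11 CPM in a treated WT library. The log2 fold change was 0.69 ± 0.45 in EV (edgeR adjusted p = 0.227), 0.58 ± 0.41 in WT (0.251) and 0.86 ± 0.42 in MUT (0.0893), and none was called. Treated libraries lay above untreated ones without overlap in EV and MUT and overlapped them in WT. The 95% interval in MUT ran from -0.02 to 1.75.

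SAMHD1 is a deoxynucleotide triphosphate hydrolase that also splits cytarabine triphosphate (chr20:36889773-36951902, minus strand). In EV, SAMHD1 read 64.8, 62.9 and 63.0 CPM untreated and 110.8, 121.4 and 114.6 CPM with drug. In WT, SAMHD1 read 51.0, 48.6 and 54.7 CPM untreated and 96.9, 89.8 and 94.6 CPM with drug. In MUT, SAMHD1 read 62.8, 73.7 and 74.3 CPM untreated and 124.2, 125.9 and 120.7 CPM with drug. Every treated library lay above every untreated library of any line. For SAMHD1 the log2 fold change was 0.86 ± 0.07 in EV (edgeR adjusted p = 1.11e-08), 0.87 ± 0.07 in WT (1.08e-08) and 0.82 ± 0.07 in MUT (1.22e-08). The rises did not differ past the threshold between lines: WT minus EV was 0.00 with a 95% interval of -0.20 to 0.21, and MUT minus EV was -0.05 with an interval of -0.25 to 0.16. The WT line stood lower with and without drug, at -0.31 ± 0.07 untreated (edgeR adjusted p = 0.00759) and -0.30 ± 0.07 treated (0.00514) against EV. The untreated call was lost without untreated WT replicate 2 (-0.27, edgeR adjusted p = 0.0521). MUT exceeded WT by 0.45 ± 0.07 untreated (edgeR adjusted p = 0.000192) and 0.40 ± 0.07 treated (0.000401).

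**Figure D3:**
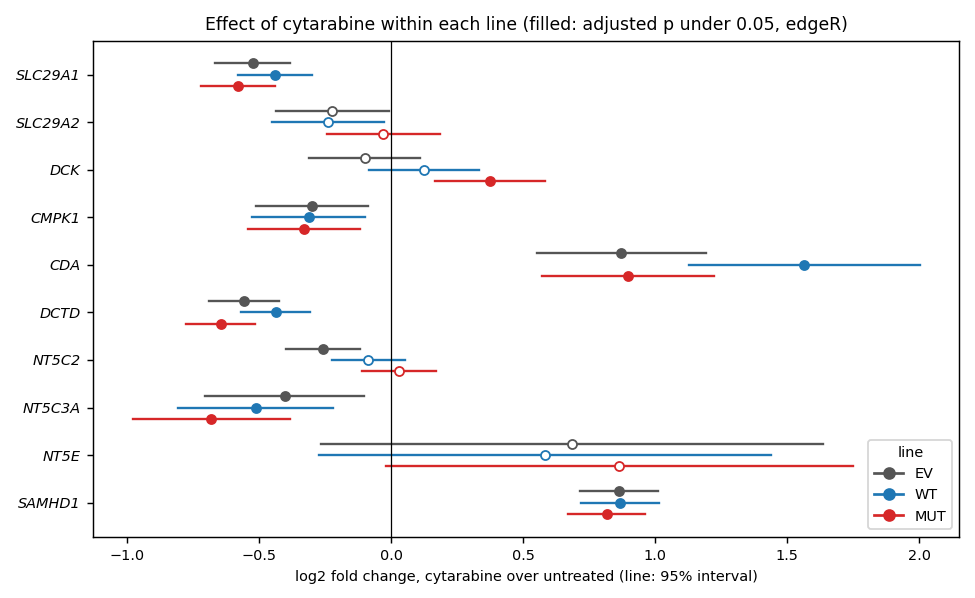
Log2 fold change of each gene with cytarabine (x axis) in EV, WT and MUT, with 95% intervals, filled where the edgeR adjusted p was under 0.05. SAMHD1 lies between 0.82 and 0.87 in the 3 lines, CDA reaches 1.56 in WT, and DCK runs from -0.10 in EV to 0.37 in MUT.

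No member passed the threshold for a difference in drug response between lines. The edgeR test called 0 of 10 for MUT minus EV, where 0.214% of all genes were called, 0 for MUT minus WT (1% of all genes) and 0 for WT minus EV (0.285%). At an unadjusted p under 0.05 there were 2, 2 and 1 members: DCK and NT5C2, CDA and DCTD, and CDA. The share of all genes at that unadjusted threshold is not given here, so these counts do not set the members apart. DESeq2 also called 0 in each, beside 487, 795 and 132 of all genes, and gave no adjusted p for NT5E in 3 of its contrasts. Without untreated MUT replicate 3, DCK passed for MUT minus EV (0.56, edgeR adjusted p = 0.0397). This was 1 of 25 alternatives, over which the DCK difference ran from 0.296 to 0.560.

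Between lines without drug, 2 of 10 members were called for MUT against EV, where 19.9% of all genes were. DCK was lower in MUT, with a log2 difference of -0.36 ± 0.10 (edgeR adjusted p = 0.0176), and without untreated MUT replicate 2 this was -0.19 (0.0939). It was also lost without untreated EV replicate 2 (-0.33, edgeR adjusted p = 0.0678). NT5C2 was lower in MUT too, at -0.29 ± 0.07 against EV (edgeR adjusted p = 0.00451) and -0.29 ± 0.07 against WT (0.00408). For MUT against WT 3 members were called (CDA, SAMHD1 and NT5C2), where 21.2% of all genes were, and for WT against EV 2 (CDA and SAMHD1), where 11.7% were. These 3 contrasts share libraries in pairs. Fitting only the groups compared ended the calls of DCK (-0.366, edgeR adjusted p = 0.13) and NT5C2 (-0.301, 0.0823 against EV, and -0.305, 0.0748 against WT). The folds were close to those above, and the share of all genes called fell to 5.83% in the comparison with EV and 7.16% in that with WT.

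With drug, edgeR called 0 of 10 members for MUT against EV, where 14% of all genes were, and DESeq2 also called 0. At an unadjusted edgeR p under 0.05 there was 1 (CDA), and the share of all genes at that threshold is not given here. For MUT against WT 2 were called (CDA and SAMHD1), where 19.8% of all genes were. For WT against EV 3 were called (CDA, SAMHD1 and DCTD), where 16.5% were. DCK, lower in untreated MUT, read 69.6 to 75.2 CPM in treated MUT and 59.4 to 71.5 CPM in treated EV, with overlap (log2 difference 0.12, 95% interval -0.09 to 0.33).

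Ratios of counts within a library set the activating kinase beside the inactivating enzymes without any scaling. DCK gave 10.6, 13.6 and 9.92 counts for each CDA count in untreated EV and 5.40, 6.40 and 5.41 with drug. In WT the ratio was 63.7, 81.6 and 80.0 untreated and 30.4, 28.9 and 23.2 with drug. In MUT it was 13.1, 9.76 and 10.4 untreated and 7.78, 8.17 and 7.16 with drug. The ratio fell without overlap in each line, and every WT library lay above every EV and MUT library. SAMHD1 counts for each DCK count rose from 0.890 ± 0.035 (SD, n = 3) to 1.74 ± 0.13 in EV and from 0.783 ± 0.070 to 1.31 ± 0.08 in WT. In MUT the untreated ratios of 1.08, 1.67 and 1.15 overlapped the treated ones of 1.72, 1.81 and 1.61, since untreated replicate 2 was low in DCK. These ratios describe RNA counts of genes of unequal length, not enzyme activities.

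**Figure D4:**
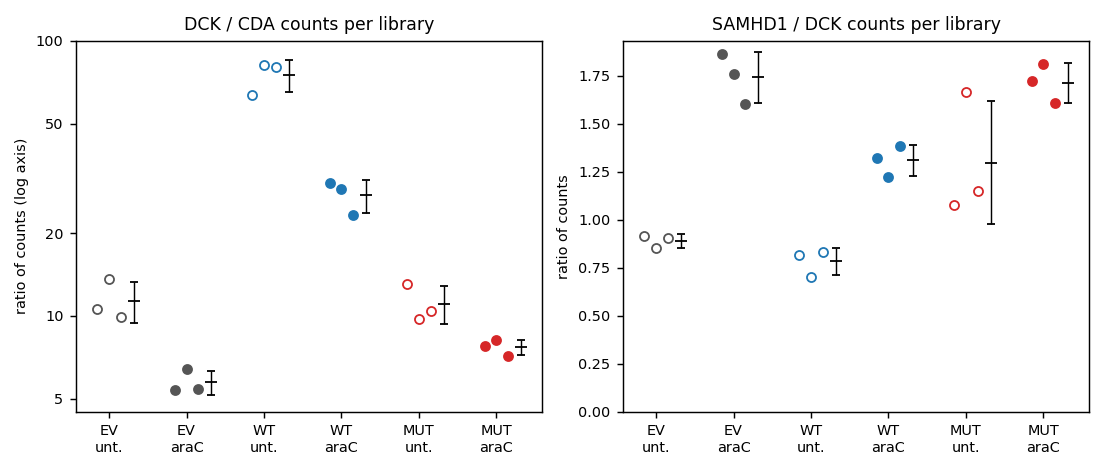
Ratios of counts within each library, DCK to CDA at left on a log axis and SAMHD1 to DCK at right on a linear axis from 0, with mean and SD of 3. The DCK to CDA ratio averages 75.1 in untreated WT, 11.4 in untreated EV and 11.1 in untreated MUT, and is lower with cytarabine in each line.

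Per length of the canonical transcript (FPKM, CPM per kb), the order of the 10 genes was headed by CMPK1, SLC29A1, DCTD and DCK in each of the 6 groups, with CMPK1 and SLC29A1 changing places in untreated WT. In untreated EV the means were 65.1 ± 1.5 (SD, n = 3) FPKM for CMPK1, 63.2 ± 1.2 for SLC29A1, 50.4 ± 3.2 for DCTD and 28.5 ± 0.9 for DCK. CMPK1 and SLC29A1 overlapped there, while DCTD and DCK stood apart from their neighbours. SAMHD1 (13.7 ± 0.2) and NT5C2 (13.1 ± 0.4) overlapped, as did SLC29A2 (11.2 ± 0.6) and NT5C3A (10.5 ± 0.4). CDA followed at 7.90 ± 1.04 FPKM and NT5E at 0.0889 ± 0.0085. With drug SAMHD1 reached 24.9 ± 1.2 FPKM in EV, overlapping DCK at 26.6 ± 2.6. CDA stood ninth in the untreated groups and in treated WT (3.26 ± 0.35 FPKM), and sixth in treated EV (14.4 ± 1.7) and treated MUT (11.7 ± 1.2). In treated MUT it overlapped NT5C2, the next gene in the order.

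Other genes of nucleoside and nucleotide handling were taken as lists by role, 38 genes of which 35 were tested. In EV 12 rose and 12 fell, where 26.1% of all genes rose and 22.9% fell. In WT 12 rose and 12 fell, where 26.3% and 22.7% of all genes did. In MUT 12 rose and 13 fell, where 30.4% and 25.9% of all genes did. With the authors' scaling the EV count was 9 and 13, the WT count 8 and 13 and the MUT count 9 and 14. Shares of all genes under this scaling are not given here, so these counts are not read as a result about the lists. Of the genes named here, this scaling ended the calls of CMPK2 in EV and WT, TK2 in WT, ABCG2 in MUT and RRM1 in EV and MUT. The median log2 fold change was 0.04, -0.01 and 0.01 in EV, WT and MUT, beside 0.05, 0.03 and 0.05 over all genes. In all 3 lines together 9 rose and 11 fell, where 18.9% of all genes rose and 16.4% fell. The lists by role are short, so their counts below are not read as a result about a role.

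Beside 18.9% of all genes rising and 16.4% falling in all lines, 1 of 3 transporters tested rose and none fell. It was SLC29A4, a monoamine and adenosine transporter, with log2 rises of 1.34 (EV), 0.68 (WT) and 1.21 (MUT). Of 5 efflux pumps tested, ABCB1, the multidrug pump P-glycoprotein, rose by 1.17, 1.37 and 1.02. ABCG2, another multidrug pump, rose by 1.17, 1.28 and 0.57, from levels of 1.29 to 4.53 CPM. ABCC4, which exports nucleotide analogues, had log2 fold changes of -0.75, -0.55 and -0.53.

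Of 13 kinases, 2 rose and 5 fell in all lines, where 18.9% of all genes rose and 16.4% fell. TK2, a mitochondrial kinase that accepts deoxycytidine, rose by 0.34, 0.21 and 0.43. CMPK2, the mitochondrial UMP/CMP kinase, rose by 0.95, 0.87 and 1.94 from at most 1.27 CPM in any untreated library. UCK2, the uridine and cytidine kinase, had log2 fold changes of -0.62, -0.47 and -0.52. DTYMK, the thymidylate kinase, had -0.42, -0.34 and -0.66. NME6, a nucleoside diphosphate kinase, had -0.44, -0.44 and -0.34. NME1 (-0.60, -0.34 and -0.81) and NME2 (-0.51, -0.55 and -0.65) are near-identical nucleoside diphosphate kinases, so the split of reads between them is uncertain. The other CMP kinase among the members, cytosolic CMPK1, fell while CMPK2 rose.

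Of 4 deaminases and pyrophosphatases, 3 fell in all lines and none rose, where 16.4% of all genes fell and 18.9% rose. DCTPP1, which clears dCTP and its analogues, had log2 fold changes of -0.78, -0.54 and -0.94. DUT, the dUTPase, had -0.65, -0.47 and -0.47. ITPA, the inosine triphosphatase, had -0.77, -0.58 and -1.04. Of 5 further nucleotidases, NT5C, the cytosolic deoxynucleotidase, had -0.63, -0.98 and -0.94. NT5C1A was called higher in each line, at no more than 0.201 CPM in any untreated and 0.984 CPM in any treated library.

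Of 5 genes of dCTP supply, 3 rose and 1 fell in all lines, where 18.9% of all genes rose and 16.4% fell. RRM2B, the p53-inducible subunit of ribonucleotide reductase, rose by 0.84, 0.91 and 1.12, and RRM1, its large subunit, by 0.23, 0.46 and 0.24. CTPS1 and CTPS2, the CTP synthases, moved in opposite directions. CTPS1 had log2 fold changes of -0.40, -0.45 and -0.46, and CTPS2 rose by 1.09, 1.37 and 0.91. CTPS2, like CDA, stood lower in untreated WT (1.69 to 2.16 CPM) than in EV (5.84 to 6.49 CPM) or MUT (4.68 to 7.23 CPM). The difference WT against EV was -1.67 ± 0.18 (edgeR adjusted p = 3.96e-06).

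**Figure D5:**
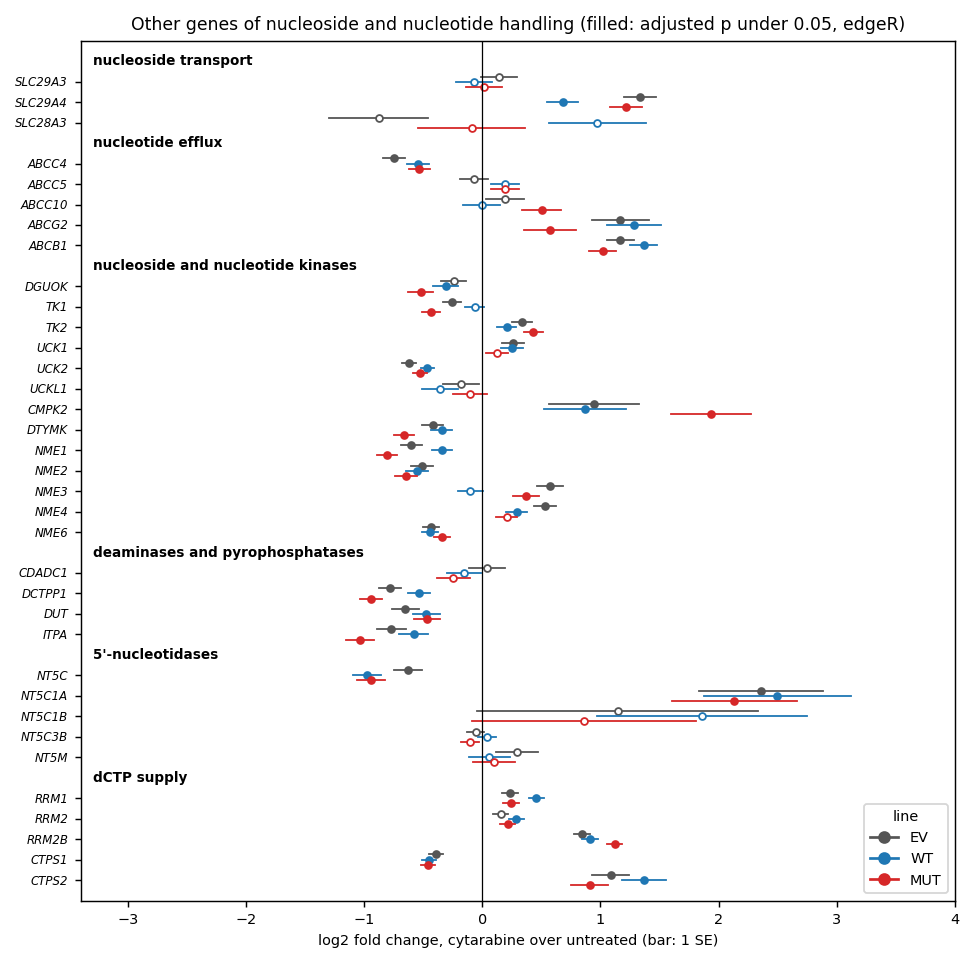
Log2 fold change with cytarabine (x axis, bars 1 SE) of the 35 tested genes in 6 lists, in EV, WT and MUT, filled where the edgeR adjusted p was under 0.05. RRM2B, CTPS2 and ABCB1 lie above 0 in all lines, and DCTPP1, ITPA and NT5C below.

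Over the 18 libraries, which share the drug contrast and the lines, the non-member genes whose log2 CPM followed each of the 6 members most closely were found by Pearson's r. For CDA they were THY1 (r = 0.981) and LGALS3BP (0.981). For SAMHD1 they were ANKRD9 (0.988) and PHETA1 (0.984). For SLC29A1 they were HNRNPCP2 (0.974) and JMJD8 (0.973), for CMPK1 KIF11 (0.959) and EEF1A1 (0.957), for DCTD PSMC4 (0.989) and FOXD1 (0.982), and for NT5C3A ANAPC16 (0.951) and TRMT112 (0.950). These values are descriptions of likeness across the same libraries.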

How the data were processed

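RNA of 18 libraries (6 groups of 3, grouped by the sample labels) was compared. The authors deposited estimated counts per gene symbol, 70.4% of them exactly whole, and a second table holding a normalized signal for each gene. That signal equalled 1 plus a library factor times the estimated count. The authors' processing, per the submitters' processing notes, names CASAVA, STAR 2.6.1d and hg38. The counting tool, and how it treated strand and multi-mapping reads, are not given in the sources used here. Of 19417 symbols matched to GENCODE release 44, 99.97% overlapped its position. Estimated counts were rounded and analysed in R 4.3.3 with edgeR 4.0.16 (filterByExpr, TMM factors, 1 coefficient per group over all 18 libraries, quasi-likelihood F test, Benjamini-Hochberg adjustment over 18226 genes, threshold 0.05). The common biological coefficient of variation was 0.104. SE came from the fold change and the F statistic. CPM used library totals scaled by TMM factors (unscaled, 15.4 to 21.9 M), and FPKM divided CPM by the length in kb of the canonical GENCODE transcript. The isoform expressed was not examined. Counting precision follows these totals.

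The 10 members and the gene lists were chosen with earlier results of these data known. Always named are the members and DNMT3A; list genes are named with values where they passed the threshold in 1 direction in all 3 lines, and likeness names the 2 non-member genes with the highest r for each such member. The lists also held markers of mesenchymal, haematopoietic, epithelial, endothelial and hepatocyte cells, and their summed levels were read by group. In each group haematopoietic markers summed to at most 1.41 CPM, PECAM1 read at most 0.418 CPM and ALB at most 0.747 CPM. Alternatives were DESeq2 1.42.0 as a test and as size factors, the authors' factors, no filter on low counts, a mean of at least 50 counts, only the groups compared, the replicate number as a block and leaving out each library. Replicate numbers were checked as pairs by the correlation of deviations from the group means. The labels name biological triplicates, so replicates are separately plated cultures of 1 line. The p-values judge a difference against the spread between such cultures, estimated for each gene over all 18 libraries together. The wider spread of the untreated MUT libraries therefore enters the tests in EV and WT as well. Spread between independently made lines is not covered.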

Additional observations from a re-analysis of the deposited data

How the results depend on the processing

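Over 66 results for single genes (all drug effects, contrasts with an unadjusted p under 0.05, differences in drug effect of SAMHD1 and SLC29A1, and MUT against EV for treated DCK and untreated CDA) and their alternatives, 1578 values kept their direction and side of the threshold, 38 came to pass it, 14 lost it and 16 changed sign. Of all 120 pairs of member and comparison, 0 of the 32 called changed sign under an alternative, and 22 of the 88 not called did. CDA, SAMHD1, SLC29A1 and DCTD kept their drug calls in all 3 lines under all 25 alternatives, and DCK kept its call in MUT (0.195 to 0.461). The count of members called moved as follows. Where no share of all genes stands beside a count, its move is not read as a result about the members. For the drug, leaving out a library gave 5 to 8 in EV, 5 to 7 in WT and 7 to 8 in MUT, and the authors' factors gave 8, 7 and 7. MUT against EV untreated had 2 and fell to 0 (of 9 tested) with only the groups compared, where 5.83% of all genes were called; leaving out a library gave 1 to 4. WT against EV untreated had 2 and rose to 5 with only the groups compared (31.5% of all genes); leaving out a library gave 1 to 3. MUT against WT treated had 2 and rose to 4 when genes needed an average of 50 counts and to 6 with only the groups compared (35.5% of all genes); leaving out a library gave 2 to 5. WT against EV treated had 3, and leaving out a library gave 2 to 4. MUT against WT untreated had 3, and leaving out a library gave 3 to 5. The difference in drug effect MUT minus EV had 0, and 1 without untreated MUT replicate 3. The cause was not tested.

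Of the 66 results, 3 changed sign. NT5C2 in MUT (0.03) read -0.012 with DESeq2's size factors, -0.055 with the authors' factors and -0.013 with DESeq2, and -0.062 to 0.066 when a library was left out. SLC29A2 in MUT (-0.03) read -0.215 to 0.055 when a library was left out. SAMHD1 WT minus EV (0.00) read -0.021 at an average of 50 counts or more, -0.004 with only the groups compared and -0.039 to 0.050 when a library was left out.

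Same-numbered libraries with and without drug correlated in their deviations by -0.04 to 0.33, and differently numbered ones by -0.34 to 0.27. Deviations from a group mean are tied to each other within the group. This check therefore cannot decide whether same-numbered libraries were handled together, and the labels give only a number. The replicate block gave 7, 6 and 7 members called in EV, WT and MUT and changed none of the 12 counts of members called.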
